A study of Mus musculus with 12 samples.

Results

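Immunoglobulin heavy chain V segments (Ighv) are the variable exons of the antibody heavy chain locus. Their transcripts were counted in 12 RNA-seq libraries of natural killer (NK) cells sorted from mouse pancreatic tumours. Segments were chosen by name and by depth: a gene was taken if its symbol began with Ighv and its raw counts summed to at least 30 over the 12 libraries. This left 98 of the 120 Ighv genes, out of 27179 genes counted in all. Of the other 22 Ighv genes, 10 had no count and 12 held 138 of the 511895 Ighv counts. The genes just outside the threshold were Ighv1-70 and Ighv1-83 with 27 counts each, and those just inside it were Ighv7-2 with 31 and Ighv11-1 with 41.

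The mice were wild-type and bore tumours, and the 4 groups of 3 libraries are all labelled day 21. The cGAMP group received 10 µg of cGAMP, a cyclic dinucleotide that activates the adaptor STING, intravenously 4 times. The anti-IL-35 group received 200 µg of an antibody that blocks the cytokine IL-35 intraperitoneally 3 times, and the combination group received both. The control group is labelled IgG. Both courses began on day 8 after the tumour cells were given and were repeated every 3 days. The protocol names PBS as the alternative to cGAMP, without saying which groups had it. The labels name no mouse strain and no sort gate, and it is not stated that the 3 libraries in each group stem from 3 different mice. The library titles carry a single number per group and a suffix for each further library, and what that number stands for is not stated. The p-values therefore measure only library-to-library spread, possibly of technical origin, and a difference between treatments cannot be told apart from a difference between the mice behind each group if libraries share mice.

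During B cell development a heavy chain V segment is joined to a D and a J segment, and the joined exon is transcribed from a promoter next to the chosen V segment. A B cell and its descendants therefore carry mostly the V segment that their ancestor chose, and an expanded clone, above all of antibody-secreting plasma cells, can fill much of the V transcript pool of a tissue. NK cells do not join heavy chain V segments to make antibody. V segments are grouped into families by sequence similarity, given by the number after Ighv. Family Ighv1, also called J558, is the largest in the mouse and lies mostly at the end of the locus far from the D segments.

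The libraries held 12811353 to 22217766 assigned reads. NK cell transcripts were abundant in all of them: the activating receptor gene Ncr1 averaged 428 CPM (counts per 1e+06 reads, scaled by the trimmed mean of M values, TMM) with cGAMP, 385 with anti-IL-35, 346 with the combination and 418 with IgG. B cell transcripts were also present in every library. Jchain, which joins secreted IgM and IgA units, averaged 1318 CPM with cGAMP, 822 with anti-IL-35, 1364 with the combination and 1412 with IgG. Genes of V(D)J recombination and of pre-B cells were near 0: a list of 7 of them (Rag1, Rag2, Dntt, Vpreb1, Vpreb2, Vpreb3 and Igll1) summed to 8.60 CPM with cGAMP, 4.97 with anti-IL-35, 7.72 with the combination and 7.47 with IgG, most of it from Vpreb3.

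V exons that stood out in the use of 1 group follow, each with the Ighv gene of the table nearest to it in sequence, because reads of close relatives are hard to assign. They were picked after their values were seen: Ighv1-84 and Ighv1-43 stood highest in IgG libraries, Ighv6-6 in cGAMP libraries, Ighv5-6 in anti-IL-35 libraries and Ighv1-66 in combination libraries. Sequences are GENCODE M21 transcripts on build GRCm38, 5′ to 3′ on the minus strand, from base 12 of the V exon, since its first 11 bases belong to the leader. They are germline sequences of the reference, not of the sequenced cells. Capitals mark bases that differ from the relative, or that the relative lacks; those of Ighv1-66 are set against Ighv1-84.
Ighv1-84 (chr12:115980702-115980995): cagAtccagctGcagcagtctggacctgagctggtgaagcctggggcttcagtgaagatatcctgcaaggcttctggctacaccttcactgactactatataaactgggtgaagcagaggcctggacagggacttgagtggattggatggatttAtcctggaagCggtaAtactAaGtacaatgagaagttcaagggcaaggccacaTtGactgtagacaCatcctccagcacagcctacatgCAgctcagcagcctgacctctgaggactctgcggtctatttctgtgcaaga
Ighv1-75 (chr12:115833950-115834243): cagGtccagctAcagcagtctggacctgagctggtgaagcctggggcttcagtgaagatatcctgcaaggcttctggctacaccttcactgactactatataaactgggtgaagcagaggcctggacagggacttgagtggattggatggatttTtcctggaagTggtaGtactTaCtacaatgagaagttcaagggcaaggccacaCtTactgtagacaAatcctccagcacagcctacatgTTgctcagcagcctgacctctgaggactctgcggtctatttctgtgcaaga
Ighv1-43 (chr12:114945950-114946243): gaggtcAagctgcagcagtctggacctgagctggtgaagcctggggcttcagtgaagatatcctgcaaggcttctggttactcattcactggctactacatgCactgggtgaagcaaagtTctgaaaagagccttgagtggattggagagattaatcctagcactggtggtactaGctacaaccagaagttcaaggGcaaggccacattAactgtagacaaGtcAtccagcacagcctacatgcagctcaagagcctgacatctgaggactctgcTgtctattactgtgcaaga
Ighv1-42 (chr12:114937113-114937406): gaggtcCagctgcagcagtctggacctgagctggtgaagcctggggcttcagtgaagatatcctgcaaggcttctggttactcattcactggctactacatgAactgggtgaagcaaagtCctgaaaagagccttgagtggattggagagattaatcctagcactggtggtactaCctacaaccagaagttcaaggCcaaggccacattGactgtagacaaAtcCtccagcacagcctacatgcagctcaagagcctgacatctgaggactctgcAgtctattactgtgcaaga
Ighv6-6 (chr12:114434788-114435087): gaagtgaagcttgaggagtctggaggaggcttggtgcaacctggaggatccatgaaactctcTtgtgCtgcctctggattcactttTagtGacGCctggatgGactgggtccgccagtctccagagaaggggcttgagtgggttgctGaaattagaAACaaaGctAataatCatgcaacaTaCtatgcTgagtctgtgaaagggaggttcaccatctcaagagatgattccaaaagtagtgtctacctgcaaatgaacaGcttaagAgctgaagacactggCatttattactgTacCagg
Ighv6-3 (chr12:114391712-114392010): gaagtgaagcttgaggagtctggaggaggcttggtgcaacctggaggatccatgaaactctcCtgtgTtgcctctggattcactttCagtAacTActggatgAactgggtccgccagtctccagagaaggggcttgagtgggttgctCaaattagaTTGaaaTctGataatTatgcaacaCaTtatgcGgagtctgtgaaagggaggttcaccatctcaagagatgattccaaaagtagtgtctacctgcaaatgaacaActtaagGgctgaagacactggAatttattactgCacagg
Ighv5-6 (chr12:113625506-113625801): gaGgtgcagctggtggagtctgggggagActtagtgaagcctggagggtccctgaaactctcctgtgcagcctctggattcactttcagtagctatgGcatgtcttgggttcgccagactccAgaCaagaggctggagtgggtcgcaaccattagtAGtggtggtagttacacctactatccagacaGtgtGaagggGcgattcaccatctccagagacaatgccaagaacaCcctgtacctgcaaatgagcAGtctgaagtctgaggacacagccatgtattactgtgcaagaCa
Ighv5-4 (chr12:113597446-113597741): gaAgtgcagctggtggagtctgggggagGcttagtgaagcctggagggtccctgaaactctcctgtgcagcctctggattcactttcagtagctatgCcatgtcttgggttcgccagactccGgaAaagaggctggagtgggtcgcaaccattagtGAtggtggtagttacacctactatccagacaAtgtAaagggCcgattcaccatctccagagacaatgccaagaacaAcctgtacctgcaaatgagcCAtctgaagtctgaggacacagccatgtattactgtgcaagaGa
Ighv1-66 (chr12:115593110-115593403): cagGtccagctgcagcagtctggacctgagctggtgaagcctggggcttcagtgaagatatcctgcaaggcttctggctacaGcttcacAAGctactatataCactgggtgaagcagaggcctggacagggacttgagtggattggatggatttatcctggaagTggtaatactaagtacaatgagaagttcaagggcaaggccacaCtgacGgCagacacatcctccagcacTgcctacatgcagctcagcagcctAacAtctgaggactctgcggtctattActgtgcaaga
Ighv1-84 and Ighv1-75 differ at 12 positions, Ighv1-43 and Ighv1-42 at 9, Ighv6-6 and Ighv6-3 at 22, Ighv5-6 and Ighv5-4 at 14, and Ighv1-66 and Ighv1-84 at 14. All 98 segments matched a RefSeq gene on chromosome 12 of build GRCm38, on the same strand as one another, between 113578504 and 116000321. Ighm, the constant region of IgM, lies at 113418826 to 113422730, beyond the end of the array at which D segments lie.

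The summed level of heavy chain V transcripts was lowest with the antibody alone. It was 2421, 2634 and 2621 CPM in cGAMP libraries, 1596, 1557 and 1615 in anti-IL-35 libraries, 2905, 2796 and 2960.0 in combination libraries, and 2791, 2780.0 and 2742 in IgG libraries. The 3 anti-IL-35 libraries lay below all 9 others. In edgeR's quasi-likelihood test the sum of anti-IL-35 libraries was lower than that of IgG libraries by a log2 fold change of -0.80 ± 0.03 (SE, 3 libraries a group, adjusted p = 5.26e-25). With cGAMP it was lower by -0.12 ± 0.03 (adjusted p = 0.0140), a call that was lost without cGAMP replicate 1 (-0.08, adjusted p = 0.168) and without IgG replicate 2 (-0.11, adjusted p = 0.0617); with library totals in place of TMM it was -0.23 and called. The combination did not differ detectably from IgG on the TMM scale (0.06 ± 0.03, adjusted p = 0.223), and was lower with library totals (-0.10, adjusted p = 0.0192). Its sum was above that of cGAMP libraries by 0.17 ± 0.03 (adjusted p = 9.27e-05) and above that of anti-IL-35 libraries by 0.86 ± 0.03 (adjusted p = 2.11e-25).

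**Figure D1:**
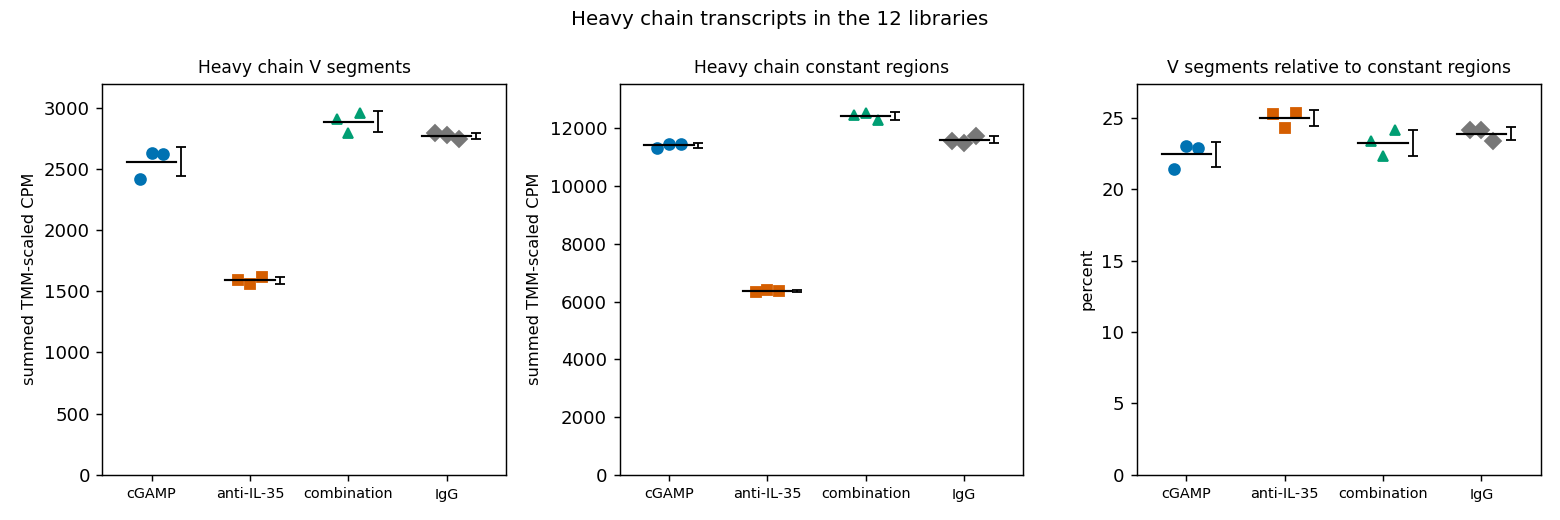
Summed heavy chain V transcripts, summed heavy chain constant region transcripts (both in TMM-scaled CPM) and the first as a percent of the second, with 1 point per library, a line at the group mean and a bar of ± 1 SD (n = 3). The anti-IL-35 libraries sit near 1589 CPM of V transcripts and 6364 CPM of constant regions, below every other library, while the ratio stays between 21.4% and 25.4%.

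Constant region transcripts, which end the same heavy chain messages, moved with the V segments. The 8 constant region genes summed to 11405 ± 73.8 CPM with cGAMP, 6364 ± 39.9 with anti-IL-35, 12420 ± 134 with the combination and 11604 ± 126 with IgG (SD, n = 3 each). V transcripts were a nearly constant percent of constant region transcripts, 22.4 ± 0.91 with cGAMP, 24.97 ± 0.57 with anti-IL-35, 23.3 ± 0.91 with the combination and 23.9 ± 0.46 with IgG, as the plot of heavy chain transcripts shows. The classes did not move together. Ighm averaged 8677 CPM with cGAMP, 2479 with anti-IL-35, 8749 with the combination and 7669 with IgG, whereas Igha, the constant region of IgA, averaged 1191 CPM with cGAMP, 2984 with anti-IL-35, 1644 with the combination and 2323 with IgG. Anti-IL-35 libraries were thus lower than IgG libraries in Ighm (-1.63 ± 0.03, adjusted p = 4.41e-41) and higher in Igha (0.36 ± 0.03, adjusted p = 7.01e-13).

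Markers of B cells, and of some other cells, were lower along with the V total in anti-IL-35 libraries. The list of 15 B cell genes summed to 1781 to 1872 CPM in cGAMP libraries, 1213 to 1260.4 in anti-IL-35 libraries, 1664 to 1673 in combination libraries and 1865 to 1916 in IgG libraries. Against IgG, 13 of the 15 were called lower and 1 higher with anti-IL-35, with a median log2 fold change of -0.76 against -0.02 over all genes tested. Over all genes tested, 9.32% were called lower and 15.7% higher with anti-IL-35 than with IgG. In the combination, where the V total did not differ detectably from IgG, 9 of the 15 were called lower, against 7.5% of all genes. Of 10 plasma cell genes, 6 were called lower and 1 higher with anti-IL-35, and they summed to 1857 to 1935 CPM in cGAMP libraries, 1232 to 1386 in anti-IL-35 libraries, 1914 to 2027 in combination libraries and 1984 to 1998 in IgG libraries. Of 8 T cell genes 7 were called lower and none higher with anti-IL-35 than with IgG, and of 8 macrophage genes 6 were lower and none higher. T cell genes summed to 219 CPM with anti-IL-35 and 304 with IgG, and macrophage genes to 2392 CPM with anti-IL-35 and 2951 with IgG. The 6 germinal centre B cell genes summed to 144 CPM with anti-IL-35 and 87.3 with IgG, with 1 called higher and 1 lower. In bulk RNA, fewer B cells and less V transcript per B cell cannot be told apart. Neutrophil genes moved too, with a sum over 9 genes of 9698 to 9909 CPM in cGAMP libraries, 17473 to 18676 in anti-IL-35 libraries, 16377 to 16509 in combination libraries and 4047 to 4210.0 in IgG libraries, and the part of any of these cells in the V segment results was not tested.

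Use of the V families was alike within groups and differed between them. The 98 segments fell into 15 families, and Ighv1 with 50 segments supplied most V counts everywhere: 58.7 ± 0.55% with cGAMP, 56.3 ± 0.45% with anti-IL-35, 56.2 ± 0.35% with the combination and 62.3 ± 0.81% with IgG (share of all Ighv counts, SD, n = 3 each). Every IgG library, at 61.4% to 62.9%, lay above the 9 treated libraries, at 55.9% to 59.3%. That order rested on Ighv1-84: with this segment left out of both the family and the V total, a step added after the values were seen, Ighv1 made up 58.6 ± 0.54% with cGAMP, 56.2 ± 0.51% with anti-IL-35, 55.9 ± 0.35% with the combination and 58.6 ± 0.82% with IgG. Family Ighv6, which has 3 segments here, made up 10.3 ± 0.21% of V counts with cGAMP, 5.63 ± 0.16% with anti-IL-35, 6.73 ± 0.17% with the combination and 5.03 ± 0.28% with IgG. Its 3 cGAMP libraries, at 10.1% to 10.5%, had no overlap with the other 9. Within it the leading segment changed: Ighv6-6 held 69.7% of the family's counts in cGAMP libraries, and Ighv6-3 held 70.5% in anti-IL-35, 66.7% in combination and 68.0% in IgG libraries.

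Families Ighv2, Ighv5 and Ighv9 were used more in anti-IL-35 than in IgG libraries. Ighv2 made up 5.09 ± 0.022% with cGAMP, 7.97 ± 0.37% with anti-IL-35, 7.84 ± 0.10% with the combination and 5.66 ± 0.24% with IgG. Ighv5 made up 5.68 ± 0.071% with cGAMP, 9.03 ± 0.29% with anti-IL-35, 6.82 ± 0.12% with the combination and 6.12 ± 0.15% with IgG. For Ighv9 the shares were 3.77 ± 0.036% with cGAMP, 5.58 ± 0.088% with anti-IL-35, 2.96 ± 0.11% with the combination and 3.31 ± 0.082% with IgG. In all 3 families the anti-IL-35 libraries lay above the IgG libraries, and for Ighv5 and Ighv9 above all others. Ighv8, with 4 segments, was lower in all cGAMP and anti-IL-35 libraries than in IgG libraries, and made up 2.503 ± 0.30% with cGAMP, 2.64 ± 0.14% with anti-IL-35, 4.13 ± 0.32% with the combination and 3.65 ± 0.15% with IgG.

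**Figure D2:**
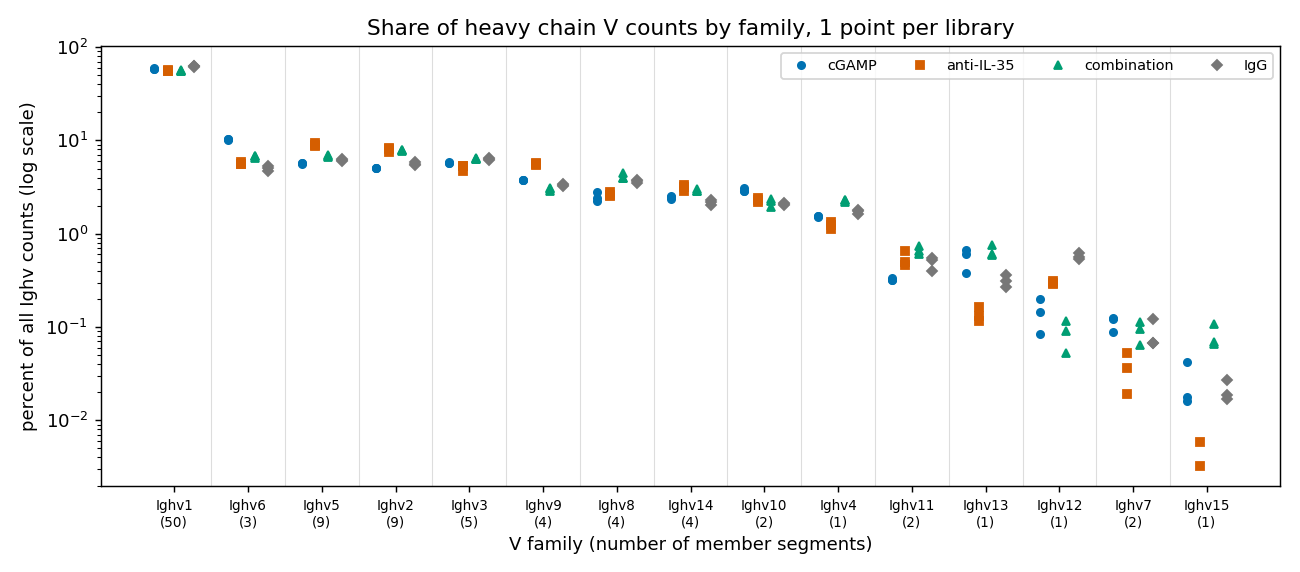
Percent of all Ighv counts held by each V family (log axis), families ordered by mean share with the number of segments in brackets, and 1 point per library by group. Ighv1 lies between 55.9% and 62.9% in all libraries, Ighv6 stands at 10.1% to 10.5% in the cGAMP libraries alone, and 1 anti-IL-35 library without an Ighv15 count is not drawn for that family.

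Some small families differed by larger factors. Ighv12, here the single segment Ighv12-3 that B-1 cells use for antibodies to phosphatidylcholine, made up 0.200%, 0.0848% and 0.146% in cGAMP libraries, 0.292%, 0.295% and 0.312% in anti-IL-35 libraries, 0.117%, 0.0916% and 0.0526% in combination libraries, and 0.533%, 0.622% and 0.569% in IgG libraries. All 9 treated libraries lay below the 3 IgG libraries. Ighv11, nearly all of it Ighv11-2, another segment of such antibodies, had its lowest share with cGAMP at 0.324 ± 0.0091% and its highest with the combination at 0.662 ± 0.064%, against 0.493 ± 0.079% with IgG. Ighv13-2, the single segment of Ighv13 here, made up 0.554 ± 0.16% with cGAMP, 0.138 ± 0.026% with anti-IL-35, 0.647 ± 0.088% with the combination and 0.314 ± 0.047% with IgG. The plot of family shares puts the anti-IL-35 libraries of Ighv13 and Ighv15 below all others.

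Summed by family and fitted with all other genes, 11 of 15 families differed between cGAMP and IgG (3 higher and 8 lower, adjusted p under 0.05 in edgeR), 14 between anti-IL-35 and IgG (none higher and 14 lower) and 10 between the combination and IgG (9 higher and 1 lower). With library totals the last split was 6 higher and 3 lower. In the fit of single genes, 12.9% of all genes were called between cGAMP and IgG, 25% between anti-IL-35 and IgG, and 23.2% between the combination and IgG. Ighv1 was not called between the combination and IgG on the TMM scale (-0.09, adjusted p = 0.0744) and was called lower under the 4 other scalings run, by -0.10 to -0.24. These counts mix the level of the whole V pool with the use of families inside it. With all Ighv counts of a library as its size, which takes the level of the pool out, 6 families differed between cGAMP and IgG. Ighv6 was then higher by 1.03 (adjusted p = 8.47e-19), Ighv10 by 0.50 and Ighv13 by 0.81, while Ighv8 was lower by -0.55, Ighv11 by -0.60 and Ighv12 by -2.01; on the TMM scale each of the 6 had the same direction and was called. For anti-IL-35 against IgG, Ighv2, Ighv5, Ighv6 and Ighv14 were lower on the TMM scale (-0.31, -0.24, -0.64 and -0.28) and higher on the scale of the V pool (0.49, 0.56, 0.16 and 0.52), so that their levels fell less than the pool did. Ighv1, Ighv3, Ighv4, Ighv7, Ighv8, Ighv12, Ighv13 and Ighv15 were lower in anti-IL-35 than in IgG libraries on both scales. In the combination, Ighv2, Ighv4, Ighv5, Ighv6, Ighv13, Ighv14 and Ighv15 were higher than with IgG on both scales, and Ighv12 was lower on both.

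Single segments carried up to 9.81% of the V counts of a library, and each group had its own leading segment. Ighv1-26 led in the 3 cGAMP libraries with 7.64%, 7.55% and 7.89%. Ighv1-9 led in the 3 anti-IL-35 libraries with 4.99%, 4.58% and 5.05%, and Ighv1-80 in the 3 combination libraries with 5.86%, 5.83% and 6.29%. In the 3 IgG libraries Ighv1-84 led with 9.81%, 8.81% and 8.46%. No group shared its leader with another. Of the 10 most used segments of each group, 5 were common to all 4 groups: Ighv1-9, Ighv1-26, Ighv1-53, Ighv3-6 and Ighv6-3. Each pair of groups shared 6 to 8 of its 10. The exonic lengths of the 98 segments are close, 347 to 480 bases with a median of 353, and 11 of the 12 segments with the highest mean share over groups were also among the 12 highest per base.

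The V pool was more concentrated on its most used segments with cGAMP and IgG than in both antibody-treated groups. The effective number of segments, the inverse Simpson index of the shares, was 31.9 ± 0.30 with cGAMP, 43.2 ± 0.55 with anti-IL-35, 43.1 ± 0.23 with the combination and 35.5 ± 1.39 with IgG (SD, n = 3 each). The 6 antibody-treated libraries lay at 42.8 to 43.8 and the other 6 at 31.6 to 36.6, with no overlap between cGAMP (up to 32.2) and IgG (from 34.0). The 10 most used segments held 47.1 ± 0.23% of V counts with cGAMP, 37.5 ± 0.32% with anti-IL-35, 36.5 ± 0.086% with the combination and 42.4 ± 0.60% with IgG. These are descriptions with no test, since 3 libraries against 3 cannot go below p = 0.1 in an exact two-sided permutation test.

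**Figure D3:**
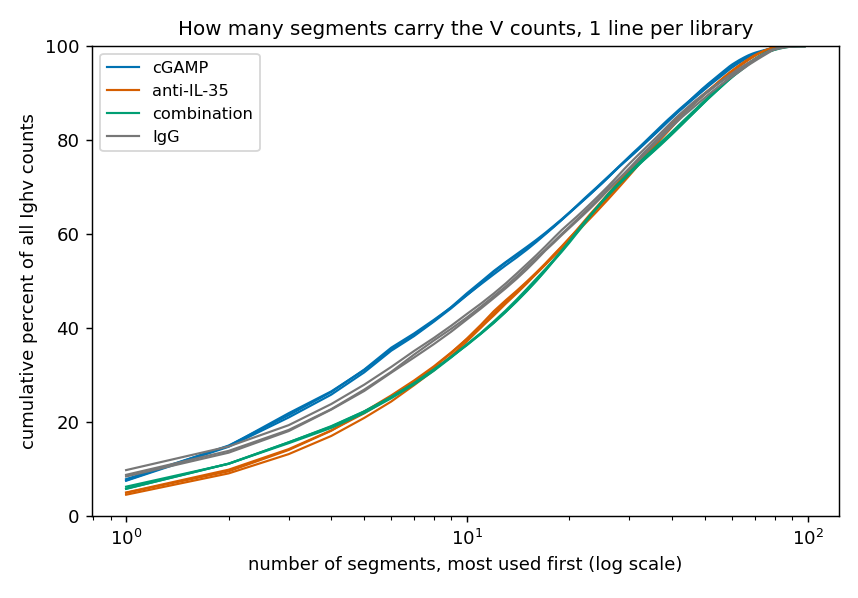
Cumulative percent of all Ighv counts (y axis) against the number of segments counted from the most used (log axis), with 1 line per library coloured by group. At 10 segments the cGAMP lines stand at 47.0% to 47.4%, the IgG lines at 41.8% to 43.0%, and the anti-IL-35 and combination lines at 36.4% to 37.8%.

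The set of shares was a close match between libraries of a group and a poor one between groups. The share of the V pool that a pair of libraries had in common, the sum over segments of the smaller of both shares, was 93.4% to 96.0% in the 12 pairs within groups (median 95.5%). In the 54 pairs across groups it was 70.9% to 79.7% (median 76.4%), lowest between cGAMP and anti-IL-35 (70.9% to 72.8%) and highest between the combination and IgG (78.2% to 79.7%). Libraries of a group still differed by more than counting noise: the chi-square over its degrees of freedom was 3.40 to 6.19 within groups, where counting alone gives a value near 1. Over all genes this ratio was 3.23 to 11.3 within groups, and for the segments across groups it was 69.5 to 117. These ratios do not tell whether libraries of a group share mice. No library was treated as a repeat of another. The segments with the widest range between groups, shown in the plot of named segments, are described next by treatment.

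**Figure D4:**
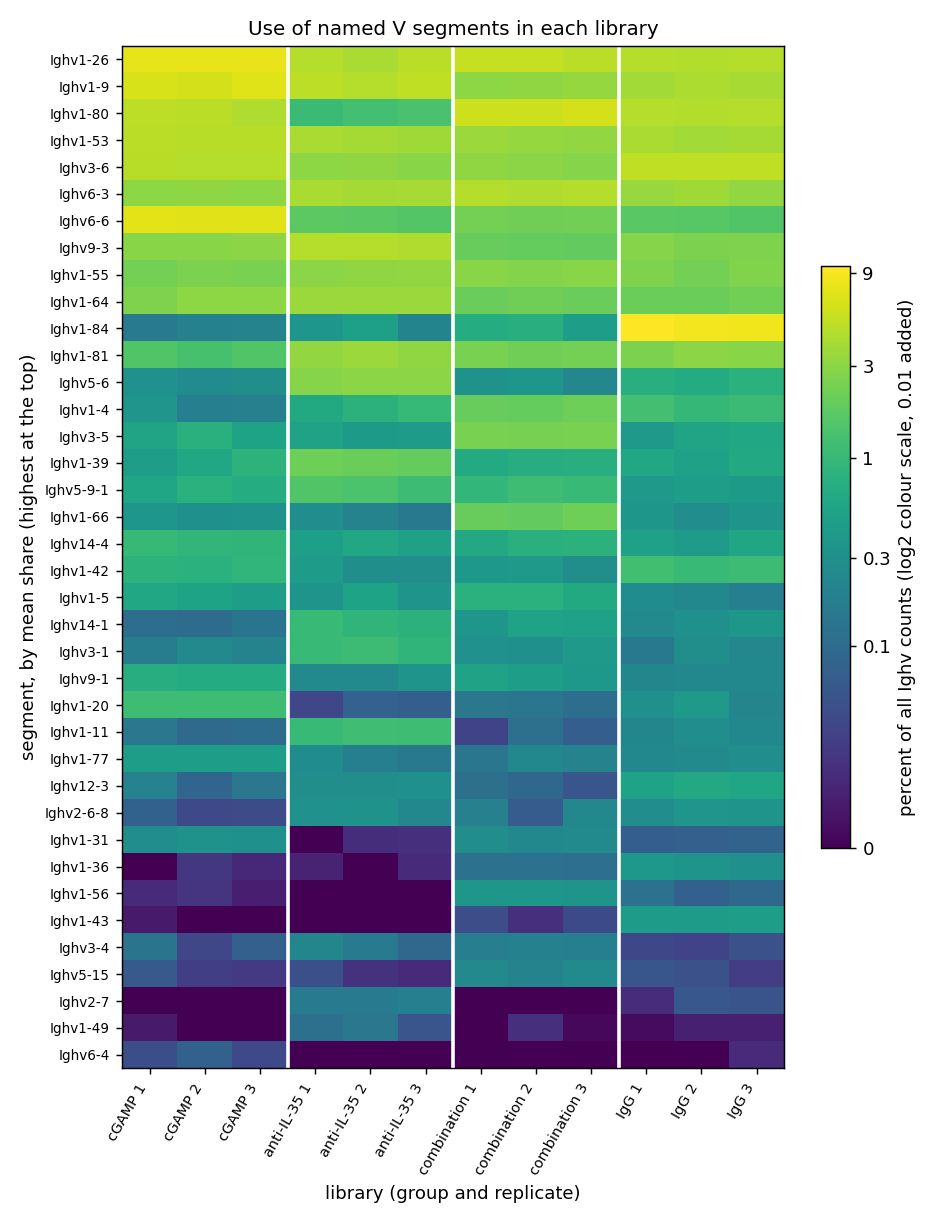
Share of all Ighv counts (colour, log2 scale with 0.01 percent added) of 38 named segments (rows, most used at the top) in the 12 libraries (columns, grouped as cGAMP, anti-IL-35, combination and IgG). Columns of 1 group look alike, and bright cells of single groups mark Ighv6-6 with cGAMP (6.99% to 7.40%), Ighv5-6 with anti-IL-35 (2.80% to 2.95%), Ighv1-66 with the combination (1.84% to 2.15%) and Ighv1-84 with IgG (8.46% to 9.81%).

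Between cGAMP and IgG, 56 of the 94 segments that passed the filter on low counts were called, 21 higher and 35 lower, which is 59.6% against 12.9% of all 14182 genes tested. Among all genes 9.37% were called higher and 3.56% lower. Changes of at least 2-fold were called for 7 segments in the higher and 18 in the lower direction, and for 1.37% of all genes in either. The filter left out Ighv1-23, Ighv7-2, Ighv8-2 and Ighv11-1, and a segment with few counts passes it through the group where it is high. With the V pool as library size the split of calls was 29 higher and 27 lower. Ighv6-6 had 179, 191 and 183 CPM in cGAMP libraries, against 46.9, 45.5 and 41.3 in IgG libraries, and rose by 2.05 ± 0.07 (adjusted p = 2.69e-27). Segments named for their change between groups had to show no overlap between the libraries compared, so such separation is no separate evidence. The share of Ighv6-6 in the pool was 7.21 ± 0.21% with cGAMP against 1.61 ± 0.09% with IgG. Its closest relative Ighv6-3 went the other way, with 73.2, 81.7 and 80.1 CPM in cGAMP libraries against 94.5, 102 and 88.3 in IgG libraries (-0.28 ± 0.07, adjusted p = 0.00387). Ighv1-26 and Ighv1-9, 2 of the most used segments, were also higher with cGAMP than with IgG, by 0.66 ± 0.06 and 0.62 ± 0.07 (adjusted p = 7.44e-12 and 4.85e-10).

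Ighv1-20 was a segment of the cGAMP group above all. It had 27.5, 30.5 and 30.05 CPM in cGAMP libraries, against 8.57, 11.2 and 6.0 in IgG libraries (1.78 ± 0.20, adjusted p = 8.82e-10), and 0.529 to 1.19 CPM in anti-IL-35 libraries. The 3 groups did not overlap, which the naming rule required for both comparisons with IgG. Ighv9-1 (1.44), Ighv1-31 (1.96), Ighv1-5 (1.07) and Ighv14-4 (0.78) were the other segments with the largest rises among those averaging at least 5 CPM in the higher group.

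On the lower side, Ighv1-84 had 3.83, 5.14 and 5.43 CPM in cGAMP libraries, against 274, 245 and 232 in IgG libraries (-5.68 ± 0.25, adjusted p = 1.22e-07). The libraries of both groups lay far apart, and the nearest relative Ighv1-75 changed far less (-0.49 ± 0.12, adjusted p = 0.00297). Ighv1-43 had 2 counts over the 3 cGAMP libraries and 606 over the IgG libraries, a ratio of 0.00352 after TMM scaling (exact 95% interval 0.000426 to 0.0128). Its relative Ighv1-42 had 1039 counts over the cGAMP and 1531 over the IgG libraries (-0.48 ± 0.14, adjusted p = 0.0170). Ighv1-4 had 8.45, 4.87 and 5.02 CPM in cGAMP libraries, against 34.7, 27.4 and 30.1 in IgG libraries (-2.35 ± 0.16, adjusted p = 1.60e-15). Ighv1-36, Ighv2-6-8 and Ighv12-3 were lower as well, with log2 fold changes of -4.98, -2.89 and -2.14.

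Between anti-IL-35 and IgG, 71 of 94 segments were called, 10 higher and 61 lower, or 75.5% against 25% of all genes tested. Among all genes 15.7% were called higher and 9.32% lower. Changes of at least 2-fold were called for 5 segments in the higher and 34 in the lower direction, and for 4.57% of all genes in either. The median segment changed by -0.77, against -0.02 for all genes. With the V pool as library size 70 were called, 39 higher and 31 lower, so the number of lower calls depended on the level of the pool. The 10 segments higher on the TMM scale rose while the pool fell. Ighv5-6 had 44.7, 45.8 and 47.6 CPM in anti-IL-35 libraries, against 21.2, 19.2 and 22.3 in IgG libraries (1.14 ± 0.13, adjusted p = 2.17e-10). It reached 2.90 ± 0.082% of the pool with anti-IL-35, against 0.754 ± 0.062% with IgG, and its relative Ighv5-4 was lower with anti-IL-35 (-1.60 ± 0.14, adjusted p = 3.66e-13).

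Ighv1-11 had 16.9, 18.4 and 18.6 CPM in anti-IL-35 libraries, against 6.30, 7.79 and 6.57 in IgG libraries (1.38 ± 0.23, adjusted p = 3.06e-06). Every 50-base window of its V exon is found in no other Ighv transcript of the annotation. The libraries of both groups did not overlap, which the naming rule required. Ighv3-1 (1.36 ± 0.20), Ighv1-39 (0.99 ± 0.15), Ighv5-9-1 (0.85 ± 0.14) and Ighv14-1 (0.76 ± 0.19) were higher too. Of these, Ighv5-9-1 was the only tested segment called higher than IgG under all 3 treatments, by 0.62 in cGAMP, 0.85 in anti-IL-35 and 1.36 in combination libraries.

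Both heavily used and rare segments fell with the antibody. Ighv1-80, heavily used in the other groups, had 17.2, 19.4 and 21.9 CPM in anti-IL-35 libraries, against 126, 123 and 126 in IgG libraries (-2.68 ± 0.08, adjusted p = 6.22e-32). Its share of the pool was 1.23 ± 0.14% with anti-IL-35 and 4.51 ± 0.084% with IgG, so it fell by more than the pool. Ighv1-84 had 5.82, 7.43 and 3.48 CPM in anti-IL-35 libraries, against 274, 245 and 232 in IgG libraries (-5.47 ± 0.24, adjusted p = 3.03e-08). Ighv1-43 had no count in the 3 anti-IL-35 libraries and 606 counts in the IgG libraries, at least 243-fold lower with a floor of 3 counts over the group. Ighv1-56, with no anti-IL-35 and 132 IgG counts, was at least 52.9-fold lower, and Ighv1-37, with no anti-IL-35 and 146 IgG counts, at least 58.5-fold lower. Floors and intervals cover counting error only. Ighv1-36 (-6.26), Ighv1-20 (-3.14) and Ighv1-42 (-2.51) also fell.

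Between the combination and IgG, 63 of 94 segments were called, 40 higher and 23 lower, or 67% against 23.2% of all genes tested, although the summed level did not differ detectably. Among all genes 15.7% were called higher and 7.5% lower. Changes of at least 2-fold were called for 17 segments in the higher and 9 in the lower direction, and for 3.77% of all genes in either. With library totals in place of TMM the split was 31 higher and 30 lower. Ighv1-66 had 57.6, 51.5 and 63.7 CPM in combination libraries, against 10.5, 7.97 and 9.49 in IgG libraries (2.63 ± 0.15, adjusted p = 4.46e-20). Its share of the pool was 1.99 ± 0.16% with the combination, 0.336 ± 0.046% with IgG, and no more than 0.377% in any library outside the combination. Ighv3-5 had 70.5, 66.0 and 72.4 CPM in combination libraries, against 11.4, 15.4 and 16.6 in IgG libraries (2.26 ± 0.13, adjusted p = 3.45e-19). Both segments were clear of IgG in every library, which the naming rule required. Ighv5-15 (2.60), Ighv3-4 (2.40), Ighv1-56 (1.98) and Ighv1-31 (1.90) rose on lower counts.

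Ighv1-84 was lower here as well, with 20.5, 21.3 and 13.3 CPM in combination libraries, against 274, 245 and 232 in IgG libraries (-3.77 ± 0.21, adjusted p = 2.75e-07). Ighv12-3 had 3.41, 2.56 and 1.56 CPM in combination libraries, against 14.9, 17.3 and 15.6 in IgG libraries (-2.67 ± 0.26, adjusted p = 5.19e-12). Neither overlapped with IgG in any library, which the naming rule required. Ighv1-43 (-3.73), Ighv1-11 (-1.75), Ighv1-42 (-1.58) and Ighv1-36 (-1.45) were lower too. The 3 comparisons with IgG share the IgG libraries, so a segment that stands high there is low in all 3. Of the 94 tested segments, 87 were called against IgG in at least 1 comparison, 11 were lower in all 3, 1 was higher in all 3, and 37 were higher in 1 and lower in another. The 11 were Ighv1-15, Ighv1-36, Ighv1-42, Ighv1-43, Ighv1-50, Ighv1-71, Ighv1-75, Ighv1-84, Ighv2-6-8, Ighv3-6 and Ighv12-3. The 7 called in none were Ighv1-58, Ighv1-61, Ighv1-62-3, Ighv1-67, Ighv1-69, Ighv1-76 and Ighv10-1. Calls were tallied across comparisons for the segments only, so how far these tallies depart from those of other genes was not measured. In single comparisons with IgG, 12.9% to 25% of all genes tested were called.

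Set against cGAMP alone, the combination had 57 of 94 segments called, 40 higher and 17 lower, or 60.6% against 14.8% of all genes tested. Among all genes 9.99% were called higher and 4.83% lower. Changes of at least 2-fold were called for 21 segments in the higher and 7 in the lower direction, and for 1.36% of all genes in either. Ighv1-4 had 57.6, 53.9 and 63.6 CPM in combination libraries, against 8.45, 4.87 and 5.02 in cGAMP libraries (3.28 ± 0.16, adjusted p = 1.26e-20). Ighv6-6 had 67.2, 60.8 and 66.6 CPM in combination libraries, against 179, 191 and 183 in cGAMP libraries (-1.51 ± 0.07, adjusted p = 2.81e-22). The segment that marked the cGAMP group was thus lower where the antibody was added. Ighv1-66 (2.77), Ighv5-15 (2.99) and Ighv1-56 (4.99) were higher in the combination than with cGAMP, and Ighv1-20 (-2.94), Ighv1-42 (-1.10) and Ighv1-77 (-1.07) lower.

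Set against the antibody alone, the combination had 73 of 94 segments called, 63 higher and 10 lower, or 77.7% against 5.85% of all genes tested. Among all genes 3.67% were called higher and 2.17% lower. Changes of at least 2-fold were called for 41 segments in the higher and 4 in the lower direction, and for 1.02% of all genes in either. With the V pool as library size the split was 39 higher and 34 lower. Ighv1-80, the leading segment of the combination, had 170, 163 and 186 CPM there, against 17.2, 19.4 and 21.9 in anti-IL-35 libraries (3.15 ± 0.08, adjusted p = 3.06e-34). Ighv1-56 had 577 counts over the combination libraries and none over the anti-IL-35 libraries, at least 210-fold higher in the combination. Ighv1-31 (5.45), Ighv5-15 (4.14) and Ighv1-66 (4.09) were higher as well. On the lower side, Ighv5-6 had 9.69, 10.2 and 6.98 CPM in combination libraries, against 44.7, 45.8 and 47.6 in anti-IL-35 libraries (-2.37 ± 0.14, adjusted p = 4.19e-19). Ighv1-11 (-3.13 ± 0.26) and Ighv1-39 (-0.65 ± 0.14, adjusted p = 0.00186) were also lower. Ighv3-1 was lower by -0.70 ± 0.20 (adjusted p = 0.0195), a call lost without combination replicate 1 (adjusted p = 0.0901) or 2 (0.129) and without anti-IL-35 replicate 1 (0.0511) or 2 (0.110).

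The effect of cGAMP differed with and without the antibody for 62 of 94 segments, 56 higher and 6 lower, or 66% against 10.4% of all genes tested. Among all genes 3.62% were called higher and 6.78% lower. Changes of at least 2-fold were called for 46 segments in the higher and 1 in the lower direction, and for 2.25% of all genes in either. This interaction is the cGAMP effect among antibody-treated groups (combination over anti-IL-35) minus that without the antibody (cGAMP over IgG). Summed over all Ighv genes it was 0.98 ± 0.05 (adjusted p = 8.53e-22). With the V pool as library size the split was 34 higher and 30 lower. Among abundant segments Ighv1-80 lay well above the median tested segment, which had an interaction of 1.04. The combination level of Ighv1-80 was 3.15 above anti-IL-35 while its cGAMP level was -0.05 from IgG (adjusted p = 0.706). Its interaction was 3.21 ± 0.10 (adjusted p = 3.47e-29). Not every abundant segment shared this pattern: Ighv9-3 averaged 55.6 CPM with the combination and 71.2 with anti-IL-35. Its means were 74.3 CPM with cGAMP and 72.6 with IgG. Ighv6-6 was opposite to the pool on both scales, with a rise of 2.05 without the antibody and an interaction of -0.75 ± 0.10 (adjusted p = 2.85e-07).

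Over the 4 groups, 69 of 98 segments had at least 2-fold different shares between their highest and lowest group, 34 at least 4-fold and 15 at least 10-fold. The median was 2.49-fold among segments with a count in every group. Segments without a count in some group are in the fold counts and not in this median. On the TMM scale the median log2 range between the highest and lowest group mean was 1.57 for the 94 tested segments, against 0.34 for all genes tested, and 73.4% spanned at least 2-fold, against 7.64%. By share, 19 segments stood highest with cGAMP, 34 with anti-IL-35, 26 with the combination and 19 with IgG. A few were at least 4-fold above the next group. In IgG these were Ighv1-84 and Ighv1-43, which held 9.47 ± 0.69% of the pool there and 0.165% to 0.779% in other libraries. In anti-IL-35 they were Ighv1-11, Ighv2-7 and Ighv1-49 (1.41 ± 0.084% of the pool), in the combination Ighv1-66 and Ighv5-15 (2.23 ± 0.18%), and in cGAMP Ighv6-4 (0.0508 ± 0.021%, 60 counts over 3 libraries). Ighv6-4 had 6 counts over the IgG libraries and none in the anti-IL-35 and combination libraries. Ighv1-49 had 100 counts over the anti-IL-35, 2 over the cGAMP, 9 over the combination and 9 over the IgG libraries. Both reached the minimum sum of 30 only through the group where they were high. Their place in this list, and any in the fold counts above, is thus partly set by how segments were chosen. Ighv2-7 had 161 counts over the anti-IL-35 libraries, 56 over the IgG libraries and none in the cGAMP and combination libraries.

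Along the locus, segments near the D segments gained share with the antibody. The 33 segments nearest to the D segments, Ighv5-2 to Ighv3-5, hold no Ighv1 member and made up 19.8 ± 0.043% of V counts with cGAMP, 28.6 ± 0.28% with anti-IL-35, 26.0 ± 0.11% with the combination and 20.02 ± 0.42% with IgG. The 6 antibody-treated libraries lay above the 6 others. The next 33, Ighv3-6 to Ighv1-47, made up 45.1 ± 0.59% with cGAMP, 34.1 ± 0.39% with anti-IL-35, 34.6 ± 0.21% with the combination and 34.9 ± 0.27% with IgG. The 32 most distant, 29 of them Ighv1, made up 35.1 ± 0.60% with cGAMP, 37.4 ± 0.17% with anti-IL-35, 39.3 ± 0.30% with the combination and 45.0 ± 0.42% with IgG. Position and family are tied in this locus, and Ighv1-84 alone held 9.03% with IgG in the distant set. Ighv5-2, also called VH81X, the member nearest to the D segments and a favoured choice of early pre-B cells, was rare, with 110 counts over the cGAMP, 6 over the anti-IL-35, 137 over the combination and 34 over the IgG libraries. In the plot of changes along the locus, called segments of both directions lie side by side over its whole length.

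**Figure D5:**
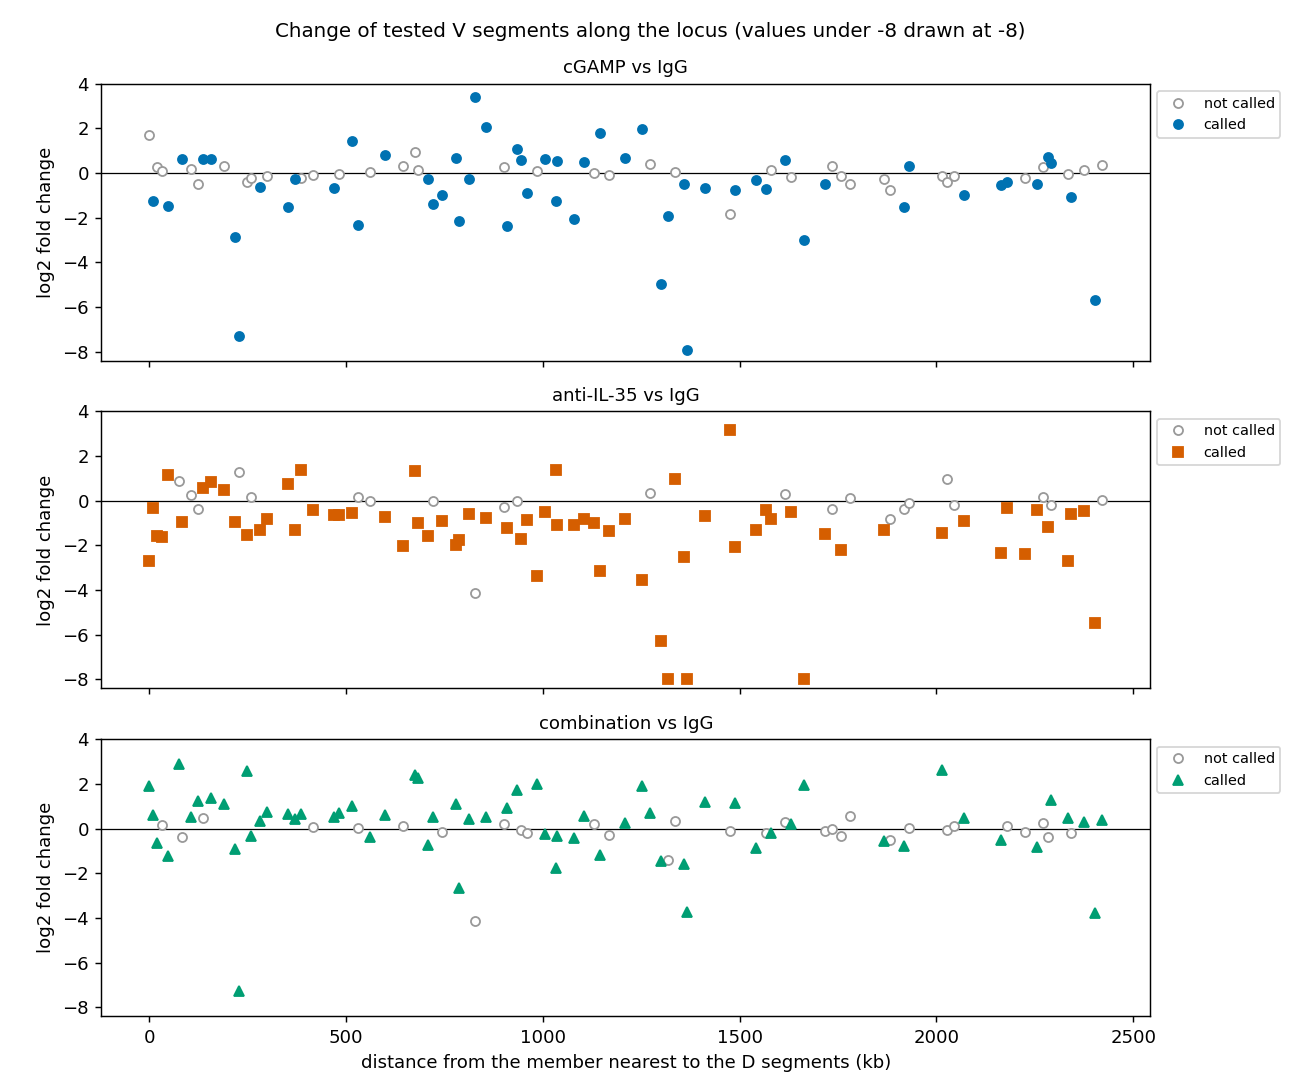
Log2 fold change against IgG on the TMM scale (y axis) of the 94 tested segments by distance from the member nearest to the D segments (x axis, kb), with filled symbols for adjusted p under 0.05 and open circles for the rest; fitted values under -8, of segments with 0 or few counts in the treated group, are drawn at -8. Most anti-IL-35 points lie below 0 (61 called lower and 10 higher), while cGAMP (35 lower, 21 higher) and combination points (23 lower, 40 higher) lie on both sides.

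Reads of segments with close relatives are uncertain, since how reads with several matches were counted is not given in the sources used here. V exons of the 98 segments were 74.4% to 100% identical to the nearest other Ighv gene of the table (median 95.4%), 57 of them at 95% or more, and for 94 that gene was of the same family. Of the 50-base windows of a V exon, a median of 77.1% occurred in no other Ighv transcript of the annotation, and 15 segments had only such windows. For Ighv1-84 this was 31.2%, for Ighv1-43 74.2%, for Ighv6-6 77.5%, for Ighv5-6 83.3% and for Ighv1-66 82.8%. Ighv1-72, a segment known from responses to the hapten NP, had none and is 99.0% identical to Ighv1-62-3, and Ighv1-71 and Ighv1-62-2 have V exons of identical sequence. Segments whose windows are all unique included Ighv1-9, Ighv1-11 and Ighv12-3, whose changes are given above. Somatic mutation of V exons in B cells, which can move a read between relatives, was not measured.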

How the data were processed

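NK cells sorted from mouse pancreatic tumours gave 12 libraries (NEBNext Ultra, RNeasy RNA), 3 each in 4 treatment groups, and groups and replicate numbers were taken from the labels. The authors deposited 1 table of unnormalised read counts. The submitters' processing notes name build mm10, featureCounts, STAR 2.7.7a and SAMtools 1.15. Annotation, strand setting and handling of multiply mapped reads were not named there.

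The edgeR package (4.0.16, under R 4.3.3) served for all tests: filterByExpr by group (minimum count 10) left 14182 genes, TMM scaling, and 1 robust quasi-likelihood fit of all 12 libraries without covariates (8 residual degrees of freedom, common biological coefficient of variation 0.0958). P-values were adjusted by Benjamini-Hochberg over all genes of a comparison, and an adjusted p under 0.05 is a call. For totals and families, Ighv rows were replaced by their sums. Log2 fold changes carry standard errors derived from the test, as the absolute change over the square root of its F statistic. Shares, effective numbers and sequence comparisons (edlib 1.3.9.post1) were computed in Python 3.11.15. The fit was tested on simulated data. Exact intervals are at 95%.

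The segments, lists and rules were chosen with earlier results of these data known. Segments were named as the 12 with the highest mean share, the 5 highest per group, the largest called changes at 5 CPM or more without overlap of libraries (6 per direction against IgG, 4 between treated groups), the 3 largest interactions per direction, and the 2 rows on each side of the sum of 30. A few others were named after their values were seen. Coordinates are from RefSeq and GENCODE M21, both GRCm38. Alternatives were RLE size factors, library totals, TMM without immunoglobulin genes, the V pool as library size, DESeq2 1.42.0, no filter, a filter of 1 CPM in 6 libraries, only the groups compared, a replicate block, each library left out, and a sum of 300.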

Additional observations from a re-analysis of the deposited data

Results flagged for a closer look

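The difference in heavy chain V segments between groups with and without cGAMP depended on the antibody. This is the interaction term of the edgeR quasi-likelihood fit (3 libraries in each of 4 groups). If libraries of a group share mice, it cannot be told apart from differences between the mice behind each group. For the sum of all Ighv genes the difference was 0.978 on the log2 scale: each combination library lay above each anti-IL-35 library, and each cGAMP library lay below each IgG library. For single segments, Ighv1-43 had a fitted interaction of 14.93 and Ighv1-56 of 13.55. These fitted values rest on anti-IL-35 libraries without a count, and for Ighv1-43 on 2 cGAMP counts, and they are not a size. Ighv1-36, with 14 counts over the cGAMP, 7 over the anti-IL-35, 192 over the combination and 475 over the IgG libraries, had 9.79. In the opposite direction stood Ighv1-11 at -1.88, Ighv5-6 at -0.88 and Ighv6-6 at -0.75.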

How the results depend on the processing

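Counts of called segments kept within 1.5 times the main count under every alternative run: 45 to 58 for cGAMP against IgG, 63 to 75 for anti-IL-35, 53 to 69 for the combination. Of 1208 values of the 58 named changes, 1204 kept direction and call, and 4, all of Ighv3-1 in the combination against anti-IL-35, lost the call. These changes were picked as the largest called ones, so their persistence was partly set by that choice and does not extend to other segments. With library totals alone the V sum of the combination was below that of IgG (-0.0964, adjusted p = 0.0192) instead of above it (0.06, adjusted p = 0.223); that scaling also moves the median gene of this comparison by -0.17, against -0.02 with TMM. With the V pool as library size, 6 families differed between cGAMP and IgG instead of 11. Leaving out single libraries gave -0.147 to -0.0781 for the V sum of cGAMP against IgG (adjusted p 0.000369 to 0.168). With a sum of at least 300 the combination had an effective number of 42.8 segments and a top-10 share of 36.6%, past 1 SD of the main values of 43.1 and 36.5%; 58 of 60 usage values moved less. With a block for the replicate number, the calls against IgG were 55 with cGAMP (56 without the block), 71 with anti-IL-35 (71) and 63 with both agents (63); they were 56 for the combination against cGAMP (57), 73 against anti-IL-35 (73) and 63 for the interaction (62). Same-numbered libraries showed little shared deviation (r of -0.025 to 0.038, against -0.043 to 0.027 for other pairs), and 7 of 12 libraries correlated best with their own number. Whether the numbers pair samples is not settled by these values, and the main fit assumed no pairing. Depth limits rare segments: Ighv1-23, Ighv7-2, Ighv8-2 and Ighv11-1 were not tested.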
